A study of Mus musculus with 25 samples.

Results

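H3K27ac HiChIP contacts between the ends of protein-coding genes and nearby intergenic chromatin were described in mouse CD8+ T cells. The loops in question were pairs of 1 kb bins that all 6 libraries listed, whose starts lay under 100 kb apart, and of which 1 bin held an annotated end of a protein-coding gene while the other overlapped no protein-coding gene. There were 2962 such loops among the 28033 loops listed in all 6 libraries (shared loops), or 10.6%, and among 121571 loops listed in any library. Choice of the loops used the annotation, the distance and the listing, and no difference between groups. The listing sets a floor of 20 contacts in every library. Just inside the distance limit, 11 loops of 95 to under 100 kb had a median of 51.7 contacts per library, and 11 pairs of the same kind in the next 5 kb had 35.3.

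The cells were CD8+ T cells from spleens of C57BL/6J mice. Per the labels' protocols such cells were stimulated with anti-CD3 and anti-CD28 antibodies or with IL-2 for 2 days and rested for 4 hours. The 6 libraries are labelled as pre-activated, either left untreated (control) or given IL-2. Each treatment was applied to 3 genotypes: wild type (WT), a mutant labelled Intron (intron deletion) and a mutant labelled Upstream (upstream deletion), which the series' design text describes together as CRISPR deletion mutants made to study the Il2ra super-enhancer. Il2ra encodes CD25, the alpha chain of the IL-2 receptor. Every genotype and treatment had 1 library, so that a treatment had 3 libraries and a genotype had 2. No label names separate animals or cultures, and no group has a repeat library, so p-values do not measure the spread between repeats of a group. They measure the spread that genotype and treatment leave between these libraries, which may be technical, with the error of counting reads. For contacts this spread was pooled over all 28033 shared loops. Its common dispersion was small (0.0026), so for a loop of few contacts the error is mostly that of counting. A loop's own spread had no weight in its p-value. Coordinates of the deletions, the number of founder lines, and the dose and duration of IL-2 are not stated in the labels or headers.

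In HiChIP, DNA ends held near each other are ligated in place, pulled down with an antibody, and counted as read pairs between bins. H3K27ac is a mark of active promoters and enhancers. A loop between a gene start and an intergenic bin is therefore the arrangement in which a distal enhancer meets a promoter, though a contact alone does not show that the distal bin regulates the gene. IL-2 acts through JAK kinases on STAT5, which binds the DNA pattern TTCNNNGAA and induces feedback inhibitors such as Cish.

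Promoter sequences are shown first for 6 genes with loops that changed, to set the STAT pattern beside the results. They run from 250 bases before to 30 bases after the RefSeq start of the gene on GRCm38.p6, and the start lies in the gene-end bin of the loop. They were chosen after the values were seen. The first pair, Cish (chr9:107296409-107296688, plus strand) and Tnfrsf18 (chr4:156026072-156026351, plus strand), belong to loops that rose with IL-2. Of 18 promoters whose bin had such a loop, only these 2 held the STAT pattern, so the pair is not typical of them. Capitals mark matches to the STAT pattern TTCNNNGAA, which is its own reverse complement.
Cish: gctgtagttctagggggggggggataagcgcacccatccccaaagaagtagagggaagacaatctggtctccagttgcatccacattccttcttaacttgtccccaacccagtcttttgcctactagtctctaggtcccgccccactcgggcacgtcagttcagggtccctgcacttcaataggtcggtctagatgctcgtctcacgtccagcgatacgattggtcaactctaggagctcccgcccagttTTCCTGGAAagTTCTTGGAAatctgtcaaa
Tnfrsf18: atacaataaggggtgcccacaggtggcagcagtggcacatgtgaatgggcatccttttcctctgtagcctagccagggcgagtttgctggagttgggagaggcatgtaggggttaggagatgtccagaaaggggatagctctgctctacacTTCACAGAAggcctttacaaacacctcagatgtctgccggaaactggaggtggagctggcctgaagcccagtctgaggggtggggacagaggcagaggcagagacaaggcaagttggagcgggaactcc
Cish holds 2 matches, which begin at positions 1 and 12 counted from the start, and Tnfrsf18 holds 1, at position −99. The second pair, Ccng2 (chr5:93267323-93267602, plus strand) and Tnfaip3 (chr10:19015381-19015660, minus strand), belong to loops that fell with IL-2. Neither held the STAT pattern in this window, and the capitals in Tnfaip3 mark a match to the AP-1 pattern TGACTCA at position −136.
Ccng2: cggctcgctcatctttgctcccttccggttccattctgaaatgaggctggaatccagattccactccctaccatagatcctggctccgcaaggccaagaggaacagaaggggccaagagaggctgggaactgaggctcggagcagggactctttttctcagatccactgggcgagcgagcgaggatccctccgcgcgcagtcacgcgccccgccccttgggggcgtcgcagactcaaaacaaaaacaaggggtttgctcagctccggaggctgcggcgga
Tnfaip3: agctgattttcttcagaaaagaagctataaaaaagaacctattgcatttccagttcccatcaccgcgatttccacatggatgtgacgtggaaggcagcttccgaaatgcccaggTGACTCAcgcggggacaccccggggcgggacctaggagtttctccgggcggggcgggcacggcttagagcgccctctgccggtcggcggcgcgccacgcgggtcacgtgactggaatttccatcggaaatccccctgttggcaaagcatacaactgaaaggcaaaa
The third pair belong to loops that changed in the intron deletion, Irgm2 (chr11:58214727-58215006, plus strand), which rose, and Il12rb2 (chr6:67376159-67376438, minus strand), which fell. Both hold 1 STAT match, at positions −75 and −123.
Irgm2: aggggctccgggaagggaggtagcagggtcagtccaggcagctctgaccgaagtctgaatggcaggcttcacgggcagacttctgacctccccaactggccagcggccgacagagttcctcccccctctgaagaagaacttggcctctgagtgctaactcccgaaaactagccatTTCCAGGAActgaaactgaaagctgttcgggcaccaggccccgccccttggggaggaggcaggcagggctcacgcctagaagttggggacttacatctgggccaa
Il12rb2: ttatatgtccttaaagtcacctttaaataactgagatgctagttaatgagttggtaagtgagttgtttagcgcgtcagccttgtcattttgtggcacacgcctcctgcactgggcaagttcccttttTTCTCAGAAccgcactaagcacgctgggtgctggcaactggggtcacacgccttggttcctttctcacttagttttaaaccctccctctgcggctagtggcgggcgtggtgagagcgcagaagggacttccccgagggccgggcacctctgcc
Over 300 bases (250 before to 50 after the start), the STAT pattern was present in 64 of 796 promoters in gene-end bins of the loops (8.04%) and in 1636 of all 21263 promoters (7.69%). The ETS pattern CCGGAAG was present in 19.3% against 11.6%, the pattern GGGCGG of SP and KLF factors in 67.5% against 46.2%, the RUNX pattern TGTGGTT in 4.40% against 4.71%, and the AP-1 patterns TGACTCA and TGAGTCA in 2.26% against 4.66%, all on both strands. The STAT pattern stood in 2 of 18 promoters whose bin had a loop that rose with IL-2, those of Cish and Tnfrsf18 shown above. It stood in 0 of 13 with a loop that fell. For the intron deletion it stood in 10 of 54 with a loop that rose and in 5 of 69 with a loop that fell. A match to these letters is a description and not a binding site.

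Depth differed between the libraries. Contacts in all listed loops summed to between 1314137 (control of the intron deletion) and 3596995 (IL-2 of WT), and the libraries listed between 38879 and 94922 loops. The gene-end to intergenic loops took 10.9% to 11.2% of the contacts of shared loops in every library. With IL-2 that share differed from control by −0.068 percentage points on average (11.08% ± 0.0972 in control and 11.01% ± 0.109 with IL-2, SD, n = 3; exact permutation test within genotypes, two-sided, p = 0.25, the smallest this design allows). The median loop held 45 and 53 contacts in control and IL-2 of WT, 32 and 46 for the Intron mutant and 40 and 41 for the Upstream mutant. In the shallowest library, the control of the intron deletion, 22.3% of the loops held 20 to 24 contacts, close to the floor, and 59.3% of the loops had their lowest count there. Scaled contacts below are deposited contacts adjusted for depth by TMM factors, and log2 fold changes come from edgeR.

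The gene side of these loops was mostly a start of transcription, but this was not particular to them. A transcription start of a protein-coding gene lay in the gene-end bin of 67.4% of the loops. Of all 2859 shared gene-end bins, 1914 (66.9%) held one, a share of bins and not of loops. The counts by strand below are a separate measure. The loops had 965 gene-end bins, which held ends of 997 genes, and 2366 intergenic bins. Strand could be matched for 17492 of 21900 genes. By it, 69.5% of the loops had a gene start in the gene-end bin, 7.56% a 3′ end, 2.36% both, and 20.6% held ends of unmatched strand. Of the 1911 loops with a single direction, 1307 (68.4%) reached upstream of the gene and 604 past its 3′ end. The choice of loops left out distal bins inside the gene body, which all lie on the 3′ side. The 2 sides are thus not alike, and the split does not show a preference. The intergenic bin lay nearest to the looped gene in 1451 loops (49.0%). In 2259 loops no other protein-coding gene lay between the bins, in 481 there was 1, and in 222 there were 2 or more, with 9 at most.

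Distances were short. The median was 13 kb, with quartiles of 8 and 26 kb, against a median of 17 kb for 1203 loops between gene ends and 10 kb for 4345 loops between intergenic bins. Of the loops, 1011 spanned 5 to under 10 kb, 894 spanned 10 to under 20 kb, 823 spanned 20 to under 50 kb, and 234 spanned 50 kb or more. Median contacts in the WT control library fell over these classes from 53 to 46, 39 and 36. H3K27ac coverage was higher at the gene end than at the distal bin in all 6 libraries for 2387 loops (80.6%), and lower in all 6 for 431. Median coverage in the WT control library was 3853 reads at the gene end and 996.5 at the distal bin.

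**Figure D1:**
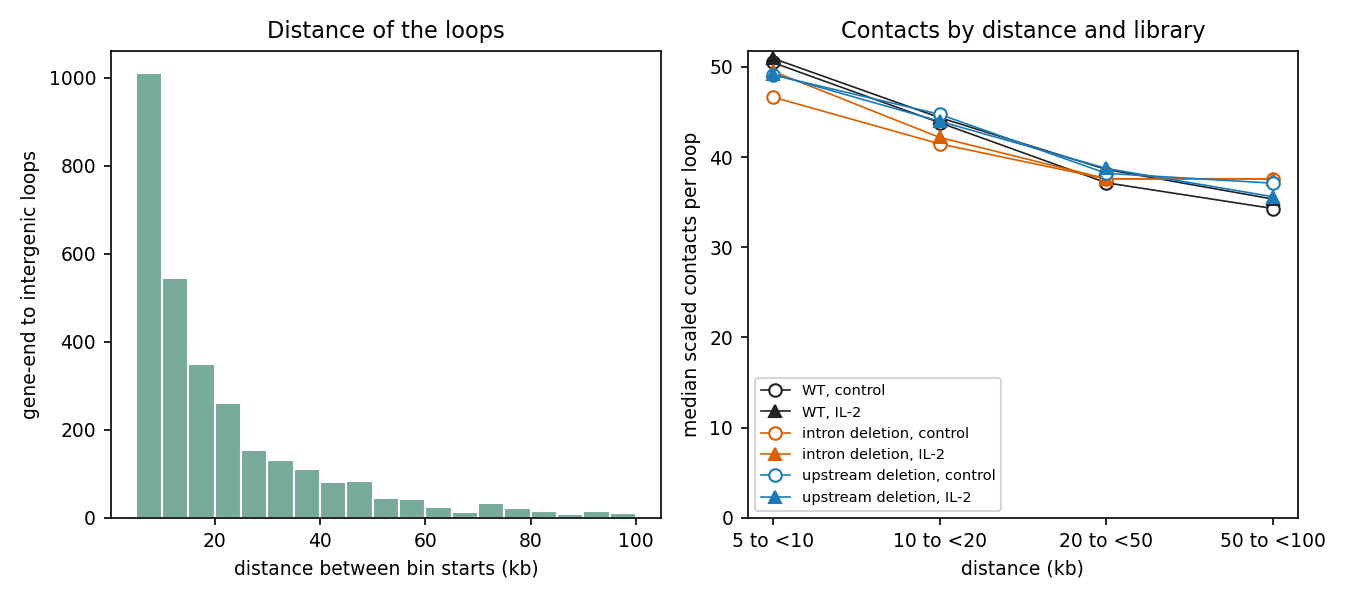
Left, number of gene-end to intergenic loops by distance between bin starts in steps of 5 kb. Right, median scaled contacts per loop in 4 distance classes for each of the 6 libraries (circles control, triangles IL-2); the first class holds 1011 loops and medians decline with distance in every library up to the class of 20 to under 50 kb.

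Distal bins were not all bare of transcripts. Of the 2962 loops, 614 (20.7%) had a distal bin that overlapped an annotated long non-coding RNA, and 103 had one that held the start of such an RNA. Among the latter were loops of Rcc1, a chromatin-bound nucleotide exchange factor, with the start of Snhg3, and of Rab42 with the start of Snhg12. Of these 103 loops 4 passed the IL-2 test (3.88%) and 11 the test of the intron deletion (10.7%), near the 3.30 and 11.3 percent of all shared loops. A microRNA gene lay in the distal bin of 7 loops, which joined Mir210 to Phrf1, Mir7671 to Irf1, Mir141 to Emg1/Phb2 and to Grcc10, Mir219a-1 to Rxrb/Slc39a7, and Mir8096 to Cab39 in 2 loops. None of these 7 passed a test.

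The loop with most contacts joined Junb, a subunit of AP-1, to a bin 7 kb upstream. It held 377, 254 and 282 contacts in the control libraries of WT, the intron deletion and the upstream deletion, and 435, 400 and 329 with IL-2. After scaling these were 308 to 367 in all 6 libraries, so that the groups overlapped. Lfng, a glycosyltransferase that modifies Notch, had 273 to 328 scaled contacts with a bin 9 kb away, past its 3′ end. Cdkn1b, which encodes the cell cycle inhibitor p27, had 262 to 338 over 7 kb. Next came loops of B4galnt1, a ganglioside synthase, at 30 kb, of the histone genes H2bc18/H3c13 at 5 kb, of Actb at 22 kb, of H2bc3 at 6 kb, of Gpr19 at 29 kb and of Tspoap1 at 7 kb. Among these named loops only that of Gpr19 passed the IL-2 test. Its distal bin is the one that Cdkn1b also contacts, 1476 bases from Cdkn1b. It held 247, 210 and 224 contacts in control and 208, 218 and 173 with IL-2. Scaled, every IL-2 library (171 to 200) lay below every control library (235 to 272), and the change was −0.45 (SE 0.107, adjusted p = 0.00305).

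Loops were unevenly spread over genes. Of the gene-end bins 455 had 1 distal partner and 165 had 5 or more, with a median of 2. The start of Rasgrp1, a Ras activator downstream of the T cell receptor, had 36 partners between 9 and 99 kb. It was followed by Gimap1 with 31, Irf2bpl with 29, B4galnt1 with 26, Ddit4 with 25, Clec2d and Il4ra with 24 each, Gimap3 with 22, and Arf6 and Btg1 with 21 each. Of the distal bins 1976 had 1 gene-end partner and 390 had more. The bin chr17:35218001-35219000, between Lta and Nfkbil1, had 9 partners at 6 genes, Ltb, Tnf, Lta, Atp6v1g2, Nfkbil1 and Ddx39b, over 13 to 24 kb. Distal bins in the histone cluster of chromosome 13 (chr13:23740001-23741000), near Banf1 and Sart1 (chr19:5407001-5408000) and in the Gimap cluster (chr6:48738001-48739000) had 7 each.

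IL-2 raised contacts of a small number of these loops and lowered those of fewer. Of 2962 loops, 65 rose and 19 fell, or 2.84%, against a background of 3.30 percent of all shared loops (2.56 percent rose and 0.731 percent fell). The share was thus near the background. Rises lay in 32 gene-end bins and falls in 15, with none in both. They included rises at Cish, Arid5a, Lta and Tnfrsf18, and falls at Nfkbia, Tnfaip3, Ccng2, Trp53inp1 and Btg2. Of the rises 59 went the same way in each genotype, and of the falls 17. Scaled contacts of the 3 IL-2 libraries all lay above those of the 3 controls in 202 loops (6.82%) and below in 186 (6.28%), against 6.68 and 5.63 percent of all shared loops. The median change was −0.00 over these loops and over all shared loops. Loops that end at genes on both sides passed in 11 of 1203 cases (0.914%) and those between intergenic bins in 168 of 4345 (3.87%). The difference between these classes was not tested.

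The test of IL-2 rests on few libraries. Without either WT library 1 loop rose and 0 fell, without either library of the upstream deletion 1 rose and 2 fell, and without either library of the intron deletion 124 rose and 66 fell, of which 59 and 17 were among the original calls. With library totals in place of TMM factors, which moved the median of all shared loops by −0.29, 0 rose and 175 fell, and with scaling that depends on the mean count 46 rose and 24 fell. The direction split is thus relative to the TMM median. DESeq2 called 0 of these loops (61 had an unadjusted p under 0.05, against 437 in edgeR).

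Among the largest rises were loops of Cish, whose product binds activated cytokine receptors and restrains STAT5. The start of Cish and a bin 59 kb away, with 2 genes between and nearest to 6430571L13Rik, held 34, 26 and 31 contacts in control (WT, intron deletion, upstream deletion) and 95, 43 and 65 with IL-2. Every IL-2 library was above every control library after scaling (39.4 to 78.1 against 32.4 to 33.8), with the intron deletion lowest among the IL-2 libraries. The change was 0.91 (SE 0.196, adjusted p = 5.61e-04). In all, 23 loops of Cish at its 2 ends were measured and 11 of them rose, 7 of 9 at the 3′ end and 4 of 14 at the start, with changes from 0.20 to 0.91. The start bin of the neighbours 6430571L13Rik/Hemk1 and a bin 27 kb away, nearest to Cish, held 29, 31 and 28 contacts in control and 76, 44 and 70 with IL-2 (0.86, SE 0.2, adjusted p = 0.00184). There the 2 libraries of the intron deletion were at 40.2 and 40.3 after scaling, so that the groups met.

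Tnfrsf18 encodes the costimulatory receptor GITR, and its start contacted a bin 7 kb away with 52, 38 and 40 contacts in control and 100, 83 and 86 with IL-2. These groups did not overlap (scaled 43.7 to 49.5 against 76.1 to 90.0), and the change was 0.80 (SE 0.166, adjusted p = 3.13e-04). The 3′ end bin of Lta, the gene of the cytokine lymphotoxin alpha, contacted the distal bin of 9 partners named above with 37, 25 and 20 contacts in control and 83, 40 and 53 with IL-2 (0.85, SE 0.206, adjusted p = 0.00319). Here WT and the upstream deletion rose while the intron deletion moved from 32.4 to 36.7 scaled contacts. The other 8 loops of that distal bin did not pass. They ran from −0.06 at the start of Lta to 0.58 at Ddx39b (adjusted p = 0.0758), and Tnf had 0.30 and 0.42 at its 2 ends.

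Arid5a encodes a protein that binds and protects certain cytokine mRNAs. All 3 of its loops rose, and that at 10 kb upstream held 23, 23 and 21 contacts in control and 45, 43 and 55 with IL-2 (0.85, SE 0.21, adjusted p = 0.00433). Nabp1, a single-stranded DNA binding protein gene, had 19 distal partners, of which 4 rose, all between 31 and 37 kb upstream. Its strongest, at 36 kb, held 74, 59 and 77 contacts in control and 163, 125 and 139 with IL-2 (0.78, SE 0.138), with the lowest adjusted p of all the loops (1.05e-05). Its largest rise, at 35 kb, was from 26, 21 and 21 to 55, 40 and 57 (0.92, SE 0.212, adjusted p = 0.00165).

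The largest rise that went the same way in each genotype was at Fam71b, from its start to a bin 7 kb upstream (0.94, SE 0.206, adjusted p = 8.67e-04). It held 35, 20 and 26 contacts in control and 77, 34 and 70 with IL-2. A loop of Osm over 13 kb, chosen for mention after its values were seen, rose by 0.95 (SE 0.212, adjusted p = 9.90e-04), from 23, 26 and 20 contacts to 63, 34 and 61, and did not rise in the intron deletion. In the Fam71b loop the IL-2 library of the intron deletion (31.2 scaled) lay below the WT control (33.3). Ier5, an immediate early gene, rose by 0.76 over 49 kb (adjusted p = 0.0138), and Plcb3/Ppp1r14b, a phospholipase C gene and its neighbour, by 0.80 over 6 kb (adjusted p = 0.00729).

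**Figure D2:**
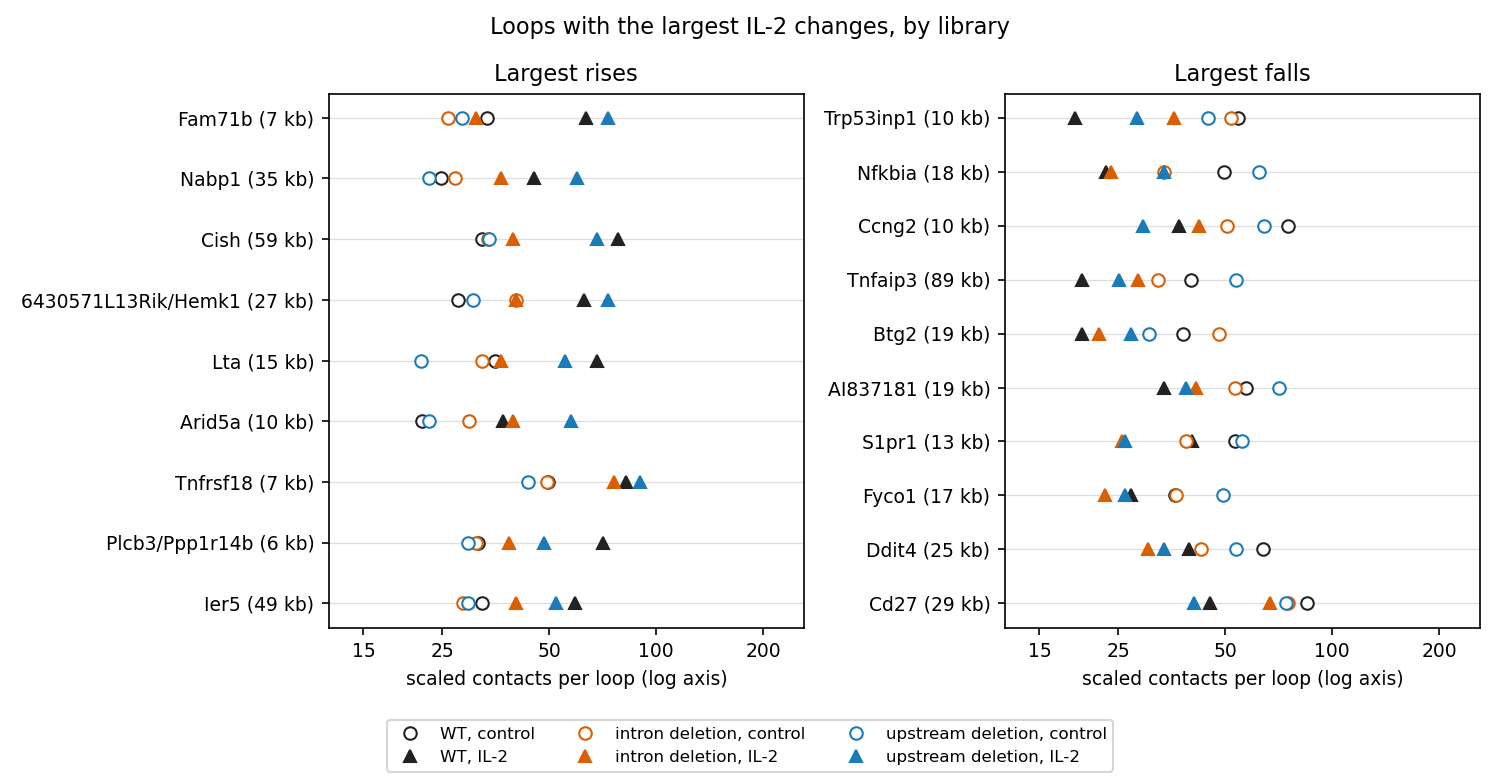
Scaled contacts (log axis) of the named loops with the largest IL-2 rises (left) and falls (right), 1 row per loop with its distance; circles are control and triangles IL-2 libraries, coloured by genotype, 1 library each. For Tnfrsf18 the IL-2 libraries (76.1 to 90.0) stand apart from control (43.7 to 49.5), while for Fam71b the intron deletion with IL-2 (31.2) lies among the controls.

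Among the falls with IL-2 were loops of genes that restrain growth. Trp53inp1, a stress gene induced by p53, fell in all 3 of its loops. The one at 10 kb held 57, 40 and 41 contacts in control and 23, 39 and 27 with IL-2 (−0.90, SE 0.205, adjusted p = 0.00146). The fall was largest in WT (scaled 54.3 to 18.9) and smallest in the intron deletion (51.8 to 35.8), with no overlap of the groups. Ccng2, an atypical cyclin that restrains proliferation, fell at a bin 10 kb upstream from 79, 39 and 59 contacts to 45, 46 and 28 (−0.82, SE 0.189, adjusted p = 0.00177). Btg2, an antiproliferative gene, fell from 40, 37 and 28 to 24, 24 and 26 at a bin 19 kb away that holds the start of the RNA Gm19497 (−0.77, SE 0.201, adjusted p = 0.0195).

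Nfkbia and Tnfaip3 encode IκBα and A20, which restrain NF-κB. The start of Nfkbia and a bin 18 kb away, past its 3′ end, held 52, 26 and 57 contacts in control and 28, 26 and 32 with IL-2 (−0.87, SE 0.205, adjusted p = 0.00257). Its untreated Intron library (33.7 scaled) was level with the IL-2 library of the upstream deletion (33.5). Tnfaip3 and a bin 89 kb upstream, the longest of the named loops, held 42, 25 and 49 contacts in control and 24, 31 and 24 with IL-2 (−0.79, SE 0.202, adjusted p = 0.00945). The remaining named falls were at S1pr1, a receptor T cells use to leave lymph nodes (−0.66, adjusted p = 0.0372), Ddit4, an inhibitor of mTORC1 (−0.63, adjusted p = 0.0438), the costimulatory receptor gene Cd27 (−0.63, adjusted p = 0.00792), AI837181 (−0.67, adjusted p = 0.0188) and Fyco1, an adaptor of vesicle transport (−0.65, adjusted p = 0.0495).

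The response to IL-2 was compared between genotypes. Among the 65 loops that rose, the median change was 0.74 in WT, 0.80 in the upstream deletion and 0.35 in the intron deletion, and the intron deletion had the smallest change of the 3 in 51. Among the 19 that fell the medians were −0.69, −0.85 and −0.36, and it was smallest in 14. Loops under 20 contacts in the shallowest library were not part of the set, which removes those that were lowest there. In the test of the response itself, 0 loops differed for WT, for the intron deletion or for the upstream deletion in edgeR (0, 0.0357 and 0 percent of all shared loops; for the intron deletion 0.00357 percent up and 0.0321 percent down). At an unadjusted p under 0.05 these were 87, 206 and 109 of the 2962 loops, and 818, 2100 and 976 of all 28033 shared loops, which are similar shares.

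Contacts of genes in lists were counted next. Of 28 genes listed as targets of IL-2 and STAT5, 17 had such loops, 112 in all. Binding of STAT5 at these genes was not examined here. Among the 112 loops 19 rose (16.96%, against 2.56 percent of all shared loops) and none fell. The rises were 11 loops of Cish, 3 of Tnfrsf18, 2 of Lta, 2 of Socs1, a feedback inhibitor, and 1 of Osm, a cytokine gene. The median change of the list was 0.21, and that of all shared loops −0.00. Loops of Il2rb (0.06 to 0.52), Pim1 (−0.10 to 0.30), Myc (−0.09 to 0.09) and the survival gene Mcl1 (−0.46 to −0.38) did not pass. Of 15 genes of quiescence and growth restraint 7 had loops, 45 in all, of which 6 fell (13.3%, against 0.731 percent) at Trp53inp1, Btg2, Ccng2 and Cdkn1b, with a median of −0.19. Of 14 NF-κB genes 6 had loops, and 3 of 37 fell (8.11%), at Nfkbia and Tnfaip3, with a median of −0.12. These lists were chosen with earlier results of these data known, so that their direction is no independent evidence.

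Other lists were counted against the same 2.56 percent of all shared loops that rose and 0.731 percent that fell. Of 55 loops of 11 cytokine receptor and JAK-STAT genes 4 rose (7.27%), all at the start of Il4ra, a receptor chain for IL-4, which had 24 partners and changes from −0.26 to 0.63 (list median 0.05). Of 88 loops of 12 T cell identity genes 4 rose (4.55%), of which 2 were at Prkcq, the gene of protein kinase C theta (list median 0.04). Of 57 loops of 10 genes of transcript stability and feedback 3 rose (5.26%), all at Arid5a (median −0.04). Of 18 loops of naive and homing genes 1 fell (5.56%), at S1pr1, and of 21 loops of activation genes 1 rose (4.76%), at Egr1 (0.72). The lists of AP-1 and IRF factors (30 loops), effector cytokines (7) and growth metabolism (2) had no loop past the threshold. Among 31 loops of housekeeping genes 7 rose (22.6%, a larger share than in the list of IL-2 and STAT5 targets), all of Actb, whose 23 loops had changes from 0.03 to 0.75. Actb is commonly taken as an invariant control, and its strongest rise, at 24 kb, was from 184, 187 and 139 contacts to 359, 274 and 267 (0.56, SE 0.106, adjusted p = 5.38e-05).

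Markers of other cells had few loops, and so had protein-coding genes at large, of which 997 of 21900 (4.55%) had any. Of the 5 marker lists, Ikzf2, of regulatory T cells, and Tyrobp, of myeloid and NK cells, had 1 loop each, and neither passed a test. No loop belonged to a marker of the NK, B or erythroid lists. In the list of 29 T cell identity genes 12 had loops, among them Cd8b1 with 19, Cd3d with 3, Cd3e with 4 and Thy1 with 3. Cd2 was also among the 12, while Cd3g, Cd8a and Lck were not. A contact is no measure of RNA, and a shift in cell makeup cannot be told apart from a shift within cells.

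The deletion genotypes were then compared with WT. The intron deletion differed in many loops, in both directions. Of 2962 loops 138 rose and 173 fell, or 10.5%, against a background of 11.3 percent of all shared loops (6.27 percent rose and 5.03 percent fell). All 138 rises and 172 of the falls went the same way in control and with IL-2. They lay in 67 and 88 gene-end bins, with 1 bin in both. The median change was −0.03 over these loops and −0.01 over all shared loops. The upstream deletion had 1 rise and 2 falls, or 0.101%, against 0.0785 percent (0.0464 percent rose and 0.0321 percent fell). Among the 138 rises of the intron deletion 123 were also above 0 in the upstream deletion, and among the 173 falls 134 were below 0; both compare with the same WT libraries.

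**Figure D3:**
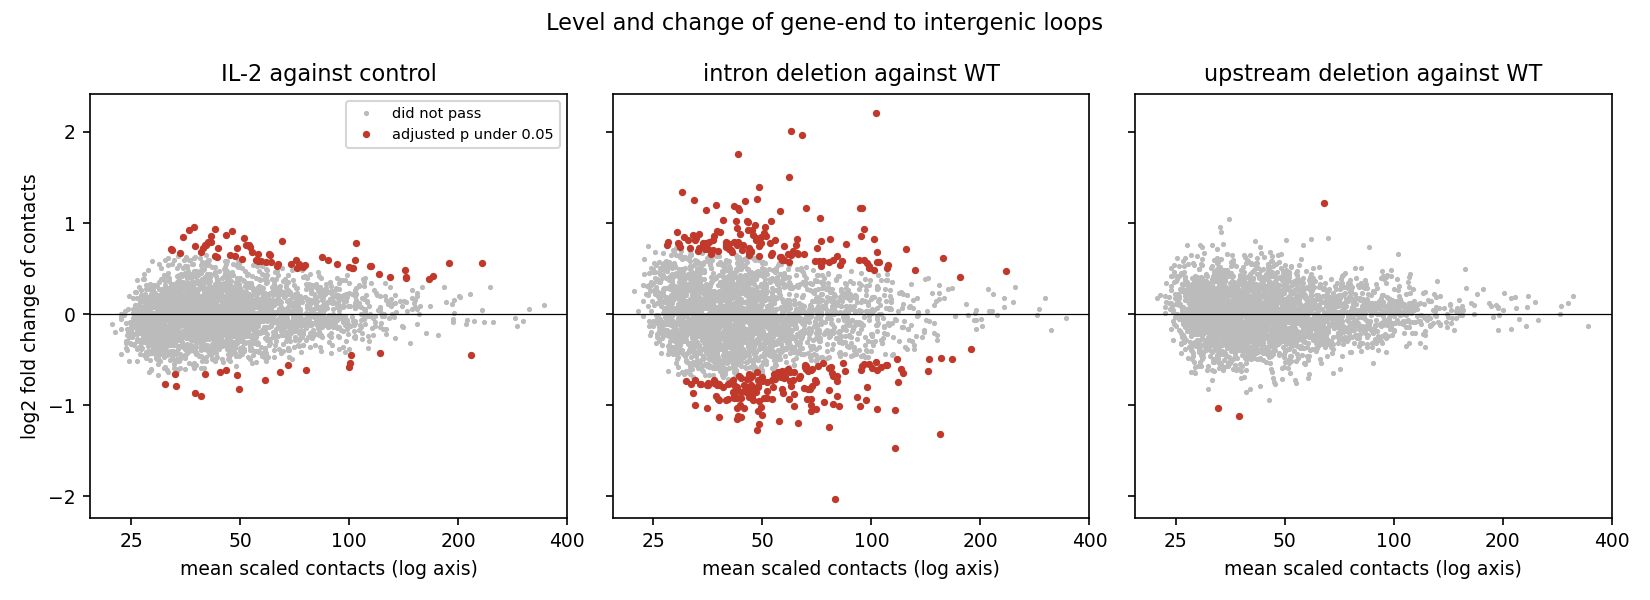
Log2 fold change against mean scaled contacts (log axis) for each of the 2962 loops, for IL-2 and for each deletion genotype; red points have an adjusted p under 0.05. The intron deletion has 311 red points on both sides of 0, IL-2 has 84 and the upstream deletion has 3.

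As for IL-2, these counts depend on single libraries. Without the IL-2 library of the intron deletion 35 rose and 46 fell, without the WT control 46 and 50, and without the WT IL-2 library 21 and 35, against 155 and 163 without the control of the intron deletion. With library totals in place of TMM factors, which moved the median of all shared loops by 0.37, 533 rose and 15 fell. DESeq2 called 7 rises and 4 falls. With 2 libraries per genotype, whatever else set these libraries apart cannot be told apart from the genotype.

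Il2ra, the gene whose super-enhancer the deletions were made to study, had 1 loop of this kind, to a bin 5 kb upstream. It held 100 and 148 contacts in WT (control, IL-2), 40 and 61 with the intron deleted and 78 and 75 in the upstream mutant. Both libraries of the intron deletion (51.8 and 55.9 scaled) lay below all others (78.5 to 122). The change was −1.01 in the intron deletion (SE 0.187, adjusted p = 7.49e-06) and −0.41 in the upstream deletion (SE 0.171, adjusted p = 0.465). IL-2 changed it by 0.15 (SE 0.15, adjusted p = 0.722).

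Loops that rose most in the intron deletion lay on several chromosomes. Fam240a had the largest, from its start to a bin 8 kb away that lay past its 3′ end. This loop held 56 and 41 contacts in WT, against 149 and 220 with the intron deleted and 69 and 58 in the upstream mutant. The intron deletion was thus at 193 and 202 scaled contacts and all other libraries at 33.7 to 75.3 (2.21, SE 0.173, adjusted p = 2.22e-33), and all 3 loops of Fam240a rose. Pdzd8, an endoplasmic reticulum protein of lipid transfer, had 26 and 34 contacts in WT with a bin 5 kb upstream, 80 and 114 with the intron deleted and 57 and 59 in the upstream mutant. This was the 1 loop that rose in both deletion genotypes (1.97, adjusted p = 8.28e-17, and 1.23, adjusted p = 0.00167). Coverage of its distal bin was also higher, by 3.57 and 2.38, while that of the Pdzd8 start changed by 0.15 and 0.08.

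Prkcq (gene-end bin chr2:11171001-11172000) lies near Il2ra (gene-end bin chr2:11642001-11643000) on chromosome 2. Its loop with a bin 11 kb upstream held 22 and 51 contacts in WT, against 61 and 111 with the intron deleted and 46 and 59 in the upstream mutant (1.504 in the intron deletion, SE 0.213, adjusted p = 7.59e-10), and 5 of its 6 loops rose. Il6st encodes gp130, the signal-transducing chain of the IL-6 receptor family. Its loop of 37 kb held 39 and 32 contacts in WT, against 63 and 89 with the intron deleted and 39 and 24 in the upstream mutant (1.39, SE 0.224, adjusted p = 1.28e-07). Here 5 of 6 loops rose and the upstream deletion overlapped WT. Further large rises were at Dph5 (1.34), the mitotic kinesin gene Kif11 (1.26), the interferon-induced GTPase gene Irgm2 (1.25), the calcium channel gene Orai2 (1.24), Tnfrsf14, a receptor of the TNF receptor family (1.20), and Arhgef1, a guanine nucleotide exchange factor gene (1.17).

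Falls in the intron deletion were led by Ly6e, a surface protein gene of the Ly6 family. Its loop of 22 kb held 124 and 122 contacts in WT, against 24 and 25 with the intron deleted and 100 and 91 in the upstream mutant. WT and the upstream deletion overlapped (95.3 to 118 scaled) and the intron deletion lay far below (22.9 and 31.1), a change of −2.03 (SE 0.219, adjusted p = 3.94e-17). Sik1, a salt-inducible kinase, had 62 and 77 contacts in WT over 19 kb, against 21 and 26 with the intron deleted and 51 and 59 in the upstream mutant (−1.28, SE 0.253, adjusted p = 3.61e-05). All 14 loops of Sik1 fell. Pim1, a kinase gene induced by cytokines, had 76 and 101 contacts between its 3′ end bin and a bin 7 kb away in WT, against 23 and 41 with the intron deleted and 60 and 83 in the upstream mutant (−1.20, adjusted p = 6.11e-06). That other bin lies 785 bases from Pim1 and adjoins its start bin, so this loop spans the gene itself. The other named falls were at Sesn2, a stress-induced inhibitor of mTORC1 (−1.17), the IL-12 receptor gene Il12rb2 (−1.15), Eed, a subunit of Polycomb repressive complex 2 (−1.13), Avpi1 (−1.12), the mitochondrial carrier gene Ucp2 (−1.06), the phosphatase gene Dusp2 (−1.05) and Phf20 (−1.04).

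**Figure D4:**
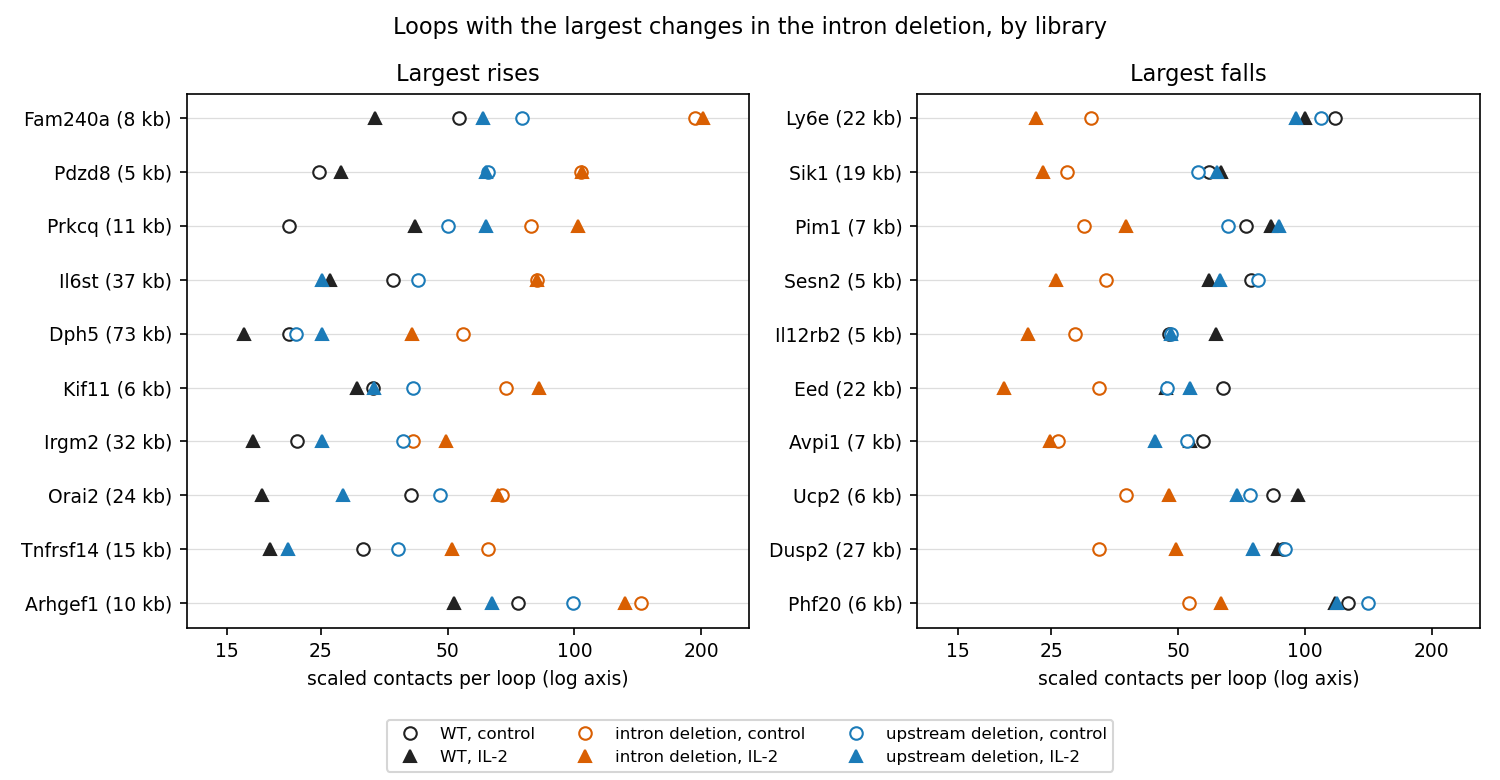
Scaled contacts (log axis) of the 10 loops with the largest rises (left) and falls (right) in the intron deletion, 1 row per loop with its distance; circles are control and triangles IL-2 libraries, coloured by genotype, 1 library each. For Ly6e both libraries of the intron deletion (22.9 and 31.1) lie below the other 4 (95.3 to 118).

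The upstream deletion fell in 2 loops. The shared start bin of Rps18/Vps52 and a bin 46 kb away, 382 bases from H2-K1, held 47 and 69 contacts in WT, against 31 and 39 with the intron deleted and 24 and 20 in the upstream mutant (−1.12, adjusted p = 0.0275). A loop of Sik1 over 24 kb held 57 and 54 in WT, against 21 and 24 with the intron deleted and 24 and 21 in the upstream mutant. This loop was low in both deletion genotypes (−1.03 in the upstream deletion, adjusted p = 0.0349, and −1.001 in the intron deletion, adjusted p = 0.00141). Without either WT library or either library of the upstream deletion no loop passed, and without either library of the intron deletion 6 rose and 3 fell. DESeq2 called 0 (16 at an unadjusted p under 0.05, against 241 in edgeR).

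Changes of loops at the same gene end had a smaller SD than those of loops at large, a difference that was not tested. An SD within a bin rests on as few as 5 loops and tends to run low. Over the 165 gene-end bins with 5 or more loops, 1566 loops in all, the SD of the IL-2 change within a bin had a median of 0.17, and the SD over all those loops was 0.26. For the intron deletion these were 0.24 and 0.40, and for the upstream deletion 0.20 and 0.25. The median SE of a single loop was 0.19, 0.23 and 0.23, so that the spread within a gene end was about the size of the error. All loops of a bin had 1 sign in 43 bins for IL-2, in 42 for the intron deletion and in 13 for the upstream deletion. No expected number was worked out for these counts. These loops share their gene-end bin and many have neighbouring distal bins, so they are not independent.

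Gene ends with several changed loops were as follows. For IL-2, rises were in 7 of 9 loops at the Cish 3′ end, 6 of 19 at Actb, 4 of 24 at Il4ra, 4 of 19 at Nabp1, 4 of 14 at the Cish start, and 3 each at 6430571L13Rik/Hemk1, Tnfrsf18, Rmi2 and Arid5a. For the intron deletion, falls were in 14 of 19 loops at Ly6e, 14 of 14 at Sik1, 13 of 25 at Ddit4, 9 of 19 at Dusp2, 8 of 9 at Prdx2/Rnaseh2a and 7 of 9 at the Cish 3′ end. Rises were in 10 of 36 loops at Rasgrp1, 8 of 11 at 1700056E22Rik, 6 of 17 at Gimap6 and 6 of 8 at Irgm2. Summed over its 14 loops, Sik1 had 1050 and 962 scaled contacts in WT, against 560 and 523 with the intron deleted and 866 and 820 in the upstream mutant. The Cish 3′ end had 1003 and 1334 in WT, against 772 and 886 with the intron deleted and 881 and 1473 in the upstream mutant. In each genotype the sum at the Cish 3′ end was higher with IL-2 than in its own control, and in each treatment it was lowest in the intron deletion, whose IL-2 library lay below the WT control.

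**Figure D5:**
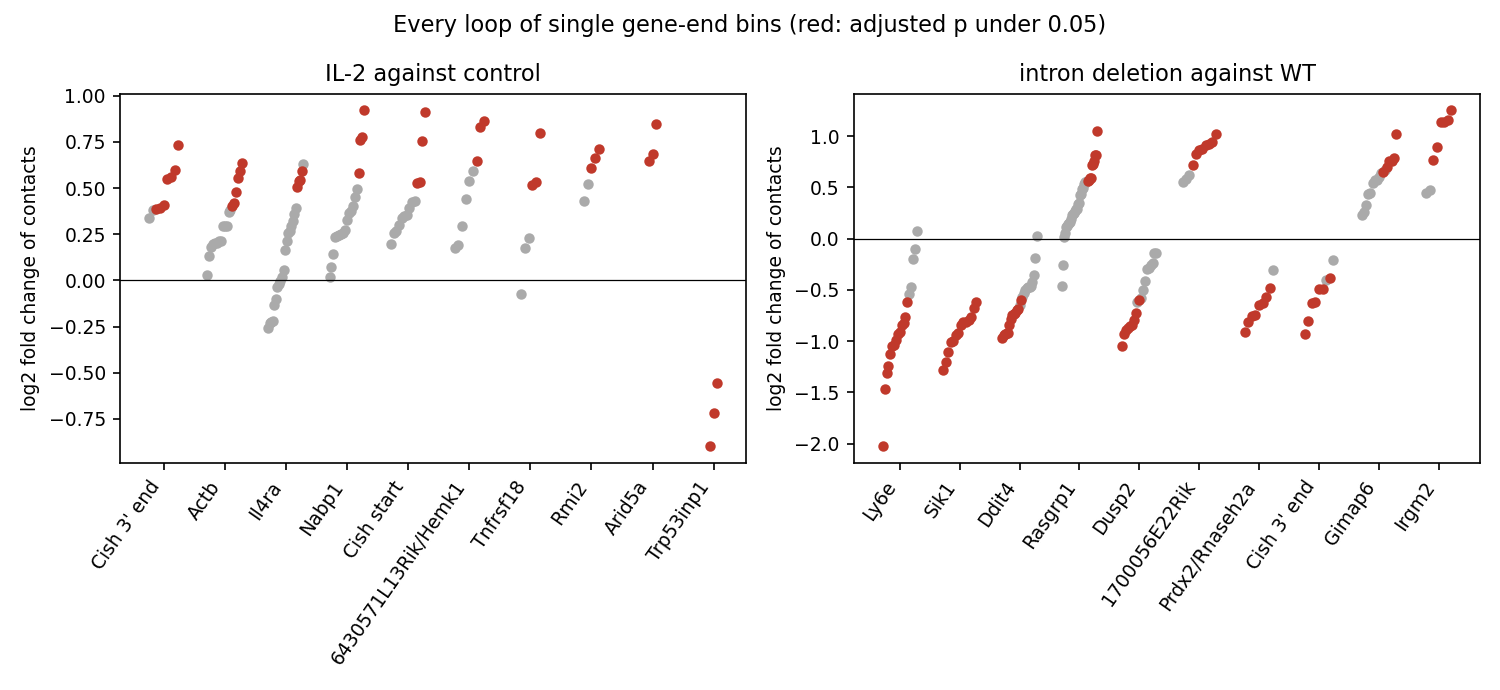
Log2 fold change of every loop of the 10 gene-end bins with most loops past the threshold, for IL-2 (left) and the intron deletion (right), 1 point per loop, red where the adjusted p is under 0.05. All 14 loops of Sik1 lie below 0 and all 9 of the Cish 3′ end lie above 0 with IL-2 and below 0 in the intron deletion.

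The same lists were counted in the intron deletion, against 6.27 percent of all shared loops that rose and 5.03 percent that fell. Of the 112 loops of IL-2 and STAT5 targets 14 fell (12.5%) and 4 rose (3.57%, median −0.29). The falls were 7 at Cish, 2 each at Osm and Pim1, and 1 each at Il2ra, Lta and Socs1, and the rises were 3 at Mcl1 and 1 at Socs1. Of 57 loops of transcript stability and feedback genes 12 fell (21.1%), 11 at Dusp2 and 1 at Dusp4, and 10 rose (17.5%), 5 at Dusp10, 3 at Zfp36 and 2 at Zc3h12d (median 0.03). Of 88 loops of T cell identity genes 8 rose (9.09%), 5 at Prkcq, 2 at Cd8b1 and 1 at Lat (median 0.10). Of 18 loops of naive and homing genes 4 rose (22.2%), all of Ccr7, the receptor that guides T cells to lymph nodes (median 0.39). Of 55 loops of cytokine receptor genes 6 rose (10.9%), of which 5 were at Il6st, and 4 fell (7.27%), 2 at Il4ra and 1 each at Ifnar2 and Il12rb2 (median 0.02). Of 37 loops of NF-κB genes 1 rose (2.70%) and 2 fell (5.41%). Of 30 loops of AP-1 and IRF factors 2 fell (6.67%), and of 7 of effector cytokines 2 fell (28.6%). None passed among the loops of quiescence (45), housekeeping (31), activation (21) and growth metabolism (2) genes. The median of all shared loops was −0.01.

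Distance went with the change in the intron deletion. Medians of the log2 change were −0.07 at 5 to under 10 kb, −0.07 at 10 to under 20 kb, 0.01 at 20 to under 50 kb and 0.15 at 50 kb or more. In control they were −0.09, −0.03, 0.05 and 0.20, and with IL-2 −0.06, −0.06, −0.01 and 0.14. Among the 687 loops with a mean of 60 contacts or more they were −0.05, −0.08, 0.02 and 0.09, the last over 25 loops. In the upstream deletion they were −0.01, −0.02, 0.03 and 0.09, and for IL-2 between −0.02 and 0.00. Depth differs between the same libraries, and its part in this was not tested.

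Coverage of the anchor bins gives a second readout, which shares reads with the contacts. With IL-2 it changed in 0 of 965 gene-end bins and 0 of 2366 distal bins in edgeR (0 percent of all shared bins). At an unadjusted p under 0.05 there were 349 and 897 of these bins, and 6801 of all 18580 shared bins. Among the 65 loops that rose, coverage was above 0 in change at the gene end in 64 and at the distal bin in 64, with medians of 0.29 and 0.39, against a median of 0.63 for the contacts. Among the 19 that fell it was below 0 at both bins in 19, with medians of −0.29 and −0.34. For Cish the changes were 0.42 at the start and 0.58 at the bin 59 kb away, and for Ccng2 −0.57 and −0.26. Contacts and coverage thus moved the same way in nearly all called loops.

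In the intron deletion, coverage changed in 390 of 965 gene-end bins (124 up, or 12.8%, and 266 down, or 27.6%). It changed in 1115 of 2366 distal bins (565 up, or 23.9%, and 550 down, or 23.2%). The background was 46.2 percent of all shared bins (21.7 percent up and 24.5 percent down). Among the 138 loops that rose the medians of the coverage change were 0.30 at the gene end and 0.57 at the distal bin, and among the 173 that fell −0.53 and −0.52. For Ly6e the distal bin changed by −2.24 and the gene end by −0.68, and for Fam240a they changed by 1.79 and 1.87. The IL-2 response of coverage differed in the intron deletion in 225 gene-end bins and 505 distal bins, against 21.5 percent of all shared bins (10.1 percent up and 11.4 percent down). In the upstream deletion 7 gene-end bins (3 up, 4 down) and 41 distal bins (27 up, 14 down) changed, against 1.69 percent (1.21 percent up and 0.484 percent down). Over all 2962 loops Pearson's r between the change in contacts and in coverage was 0.65 at the gene end and 0.59 at the distal bin for IL-2, and 0.69 and 0.66 for the intron deletion, across loops that share bins and libraries.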

How the data were processed

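The loops and the gene lists were chosen with earlier results of these data known. Of 25 samples, the 6 HiChIP libraries were used and 19 ChIP samples were not analysed here. The deposited loop lists give contact counts between 1 kb bins at least 20 strong, and the authors' coverage counts of each bin. The submitters' processing notes name CASAVA, Bowtie2 2.2.6 and HiC-Pro with mm10. Further settings are not stated in the labels or headers. Gene ends, strand and promoters came from RefSeq tables of GRCm38.p6.

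Counts were fitted with edgeR 4.0.16 (quasi-likelihood, TMM, genotype and treatment as additive terms, 6 libraries, 2 residual degrees of freedom) in R 4.3.3 over all 28033 shared loops or 18580 shared bins, with Benjamini-Hochberg adjusted p under 0.05 as the threshold. In this fit of the loops edgeR gave all the weight to the pooled spread (infinite prior degrees of freedom). In the fit of the bins it gave part of the weight (median of 4.23 prior degrees of freedom). The IL-2 response of 1 genotype against the others was fitted with an interaction term and 1 residual degree of freedom. DESeq2 1.42.0 was an alternative, as were other scalings, a filter on the mean and leaving out each library. Contact counts are read pairs, so precision is limited by counts of 20 to 435 per loop. Named loops were the 10 largest rises and falls past the threshold with the same direction in each genotype or treatment, 1 per bin, with the 10 strongest loops, list genes and Il2ra. Some of these loops are not reported here.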

Additional observations from a re-analysis of the deposited data

Results flagged for a closer look

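Coverage of the gene-end bins responded to IL-2 differently in the intron deletion than in the other 2 genotypes in 225 of 965 bins (78 up, 147 down, 23.3%), and coverage of the distal bins did so in 505 of 2366 (261 up, 244 down, 21.3%), against 21.5 percent of all shared bins, by the interaction term in edgeR with 1 residual degree of freedom. This comparison was added after the data were seen. In the same comparison of contacts 0 of the 2962 loops passed in edgeR. At an unadjusted p under 0.05 there were 206, and 2100 of all 28033 shared loops. A second fit kept only shared loops with a mean of 60 contacts or more. It held 687 of the loops described here, and 4 of these passed, all lower. The share of all shared loops that passed under that filter was not worked out. The control of the intron deletion is also the shallowest library, and the part of depth in these values was not tested.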

How the results depend on the processing

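The named rises and falls were chosen for a shared sign across genotypes, or across treatments, so a reversal was unlikely from the start. None reversed under the alternatives run for them. Of the 20 named for IL-2, 0 passed in DESeq2, 0 without either WT library and 2 without either library of the upstream deletion. Without either library of the intron deletion 18 passed. Of the 20 named for the intron deletion, 5 passed in DESeq2. The split of rises and falls did reverse. With library totals in place of TMM factors, IL-2 gave 0 rises and 175 falls, the intron deletion 533 and 15, and the upstream deletion 10 and 0, with median shifts of −0.29, 0.37 and 0.29. DESeq2 gave 0 and 0, 7 and 4, and 0 and 0. Among 687 loops with a mean of 60 contacts or more, IL-2 gave 31 rises and 21 falls, the intron deletion 58 and 72, and the upstream deletion 2 and 0. In the same filter 4 loops had a lower IL-2 response in the intron deletion. Shares of all shared loops under this filter were not worked out, so these counts have no background beside them. Scaling that depends on the mean count gave 46 and 24 for IL-2. DESeq2 size factors gave 5 gene-end bins with higher coverage in the upstream deletion. Gene ends within 1 bin gave 4766 loops, which kept 2362 of the 2962. The cause of these shifts was not tested.

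Leaving out each library gave 1 to 124 rises and 0 to 66 falls for IL-2, 21 to 155 and 35 to 163 for the intron deletion, and 0 to 6 and 0 to 3 for the upstream deletion. Gene-end coverage gave 0 to 322 and 0 to 232 for IL-2, 29 to 199 and 71 to 428 for the intron deletion, and 0 to 153 and 0 to 232 for the upstream deletion. Distal coverage gave 0 to 610 and 0 to 665, 316 to 749 and 246 to 800, and 1 to 563 and 0 to 388. A lone library of a genotype was assumed to vary like the others. Loops under 20 contacts in any library are outside these results, and 32.5% of the loops had a lowest count below 25. The labels give no replicate numbers, and the names of the deposited lists all carry the same one. Libraries were paired by genotype only, through the genotype term of the fit and the permutation within genotypes.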
